A study of Mus musculus with 36 samples.

Results

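The immunoglobulin heavy chain variable segments of the mouse, whose gene symbols begin with Ighv, were followed through 12 RNA-seq libraries of small intestine. A gene was taken as a member when its Entrez identifier mapped to such a symbol, with no use of its values, which gave 120 members among the 27179 genes counted. All 120 are annotated as V segments and none as a pseudogene by RefSeq on GRCm38 (mm10), on chromosome 12 between positions 113578504 and 116009954. The libraries came from mice on a DQ8 background that had been challenged with gluten and either carried the long noncoding RNA lnc13 (lnc13-WT-DQ8, here WT) or lacked it (lnc13-KO-DQ8, here KO). For each genotype there were 2 libraries of whole tissue, 2 of lamina propria lymphocytes (LPL) and 2 of intraepithelial lymphocytes (IEL), titled as biological replicates. DQ8 is a human class II molecule that presents gluten peptides, and lnc13 is a noncoding RNA encoded beside Il18rap. The age of the mice, and how LPL and IEL were isolated, are not given in the sources used here. The other 24 samples of the series, of CD8 cells and of lnc13 purification, were not analysed here.

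An antibody heavy chain gene is assembled in each developing B cell by joining 1 V segment to a D and a J segment ahead of the constant genes. The joined gene is inherited by all descendants of that cell, so a clone of B cells or plasma cells transcribes the same V segment. Plasma cells, the secreting end stage of the lineage, hold far more immunoglobulin RNA per cell than resting B cells. In the small intestine most of them lie in the lamina propria and make IgA, whose constant region is encoded by Igha and which the receptor Pigr carries across the epithelium. The share of heavy chain reads that falls on each segment therefore describes which V segments were in use, but a segment is not a clone, since many clones can use 1 segment. The RNA was bulk, so fewer cells of a type and less RNA per cell cannot be told apart in any value below.

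Total reads in genes lay between 10186522 and 13620975 per library. Marker genes were read against the labels. The summed level of 8 T cell genes was 212 to 723 CPM (reads scaled to a common library size, with trimmed-mean factors) in the IEL libraries, and 1.73 to 90.3 CPM in the LPL libraries, below every IEL library. All LPL libraries carried RNA of 6 exocrine pancreas genes, at 3874 to 8257 CPM in sum, against at most 2.30 CPM in any tissue or IEL library, so the LPL label did not cover all of their RNA. Epithelial genes (6) summed to 18825 to 32287 CPM in tissue, 5581 to 7606 in LPL and 8792 to 10639 in IEL. Of the 6, 5 were called lower in LPL than in tissue (all genes 28%) and 5 in IEL (all genes 23.1%). Macrophage genes (6) summed to 55.9 to 117 CPM in tissue, 3.20 to 86.9 in LPL and 5.61 to 11.6 in IEL. Of these, 4 of 6 were called lower in LPL than in tissue (all genes 28%) and 4 in IEL (all genes 23.1%). LPL WT replicate 1 stood apart from the other LPL libraries in several immune genes, with Il22 at 33.4 CPM against at most 1.42, T cell genes at 90.3 against at most 12.98 and macrophage genes at 86.9 against at most 7.07. Tissue replicate 2 of both genotypes came from male mice by the Y-linked gene Ddx3y (34.0 and 38.7 CPM, against at most 0.109 in the other 10 libraries) and had lactase RNA (Lct) at 0.330 and 0.359 CPM, against 81.2 and 211 in tissue replicate 1. The knockout label was not checked by lnc13 itself.

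Ighv transcripts were most abundant in LPL and were found in every library. Of 145415 reads on Ighv segments in all, the tissue libraries held 2026 and 4340 (WT) and 662 and 1293 (KO). The LPL libraries held 78107 and 11812 (WT) and 27173 and 14543 (KO), and the IEL libraries 1410 and 2404 (WT) and 962 and 683 (KO). As a part of all reads, Ighv made up 0.712% of LPL WT replicate 1 but 0.006% of tissue KO replicate 1.

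Summed over the 120 segments, the tissue level was 174.8 and 358 CPM in WT and 72.0 and 155 CPM in KO. In LPL it was 5860 and 767 CPM in WT and 2353 and 899 CPM in KO, and in IEL 126 and 241 CPM in WT and 98.2 and 63 CPM in KO. Every LPL library lay above every tissue and IEL library, whereas tissue and IEL libraries overlapped. The means were 190 ± 121 CPM in tissue, 2470 ± 2372 in LPL and 132 ± 76.9 in IEL (SD, n = 4 each), so that LPL was 13-fold above tissue and 18.7-fold above IEL. Between genotypes, the WT means of 266 ± 130, 3313 ± 3602 and 183 ± 81.2 CPM stood against KO means of 113 ± 58.6, 1626 ± 1029 and 80.6 ± 24.9 CPM (SD, n = 2 each; tissue, LPL and IEL in that order). WT was thus 2.35-fold, 2.04-fold and 2.27-fold above KO. Both KO libraries lay below both WT libraries in tissue and in IEL, while in LPL they lay between the WT pair, which spanned the widest range of any group. No test was run on these sums. Without LPL WT replicate 1 the LPL difference turned, from a log2 of -1.03 for KO against WT to 1.08. Without that library the log2 differences of summed CPM were also smaller between preparations, 2.82 in place of 3.70 for LPL against tissue and -3.34 in place of -4.23 for IEL against LPL.

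**Figure D1:**
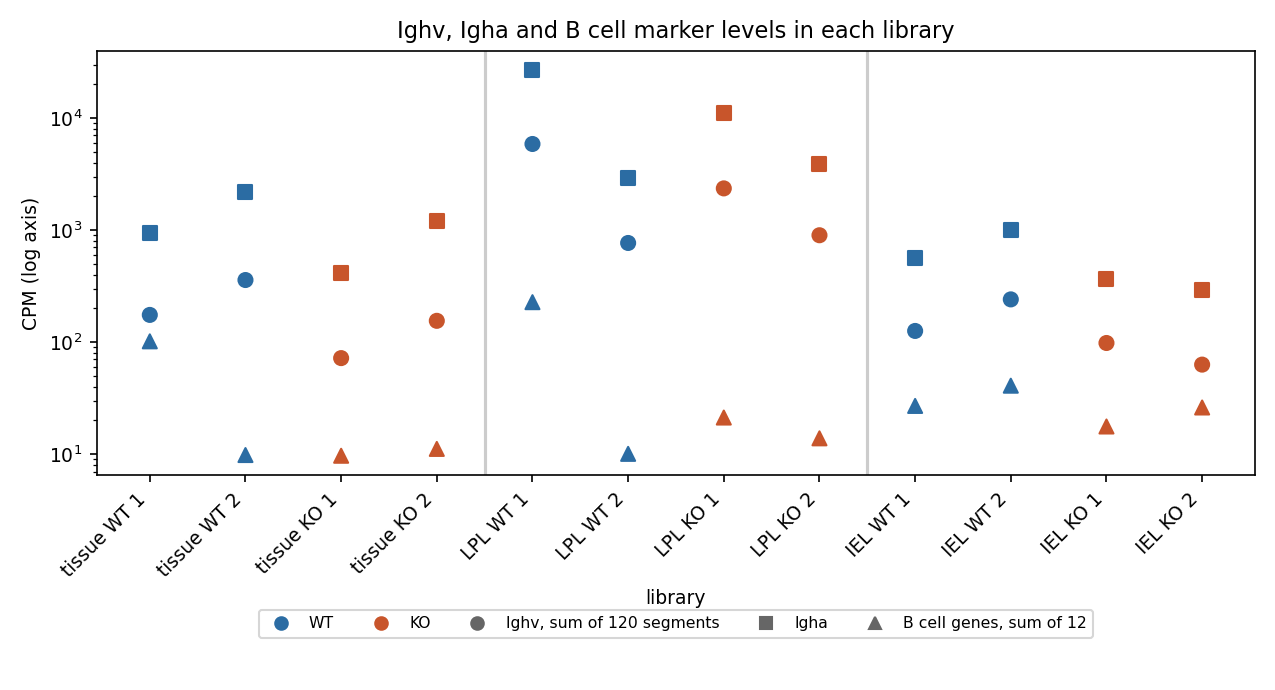
Levels in each of the 12 libraries on a log axis of CPM: Ighv summed over 120 segments (circles), Igha (squares) and 12 B cell genes summed (triangles), WT in blue and KO in orange. Ighv and Igha are both highest in LPL WT replicate 1 (5860 and 26781 CPM) and both lowest in IEL KO replicate 2 (63 and 290 CPM), while the B cell genes follow another order.

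Most segments were in use. A read was found for 105 of the 120 segments in at least 1 library, 36 were read in all 12 libraries, and 4 (Ighv1-26, Ighv6-3, Ighv1-53 and Ighv1-82) had at least 10 reads in each. The other 15 had none, among them Ighv16-1, the only member of its family, and 4 members of the Ighv8 family. The number of segments seen ran from 50 in IEL KO replicate 1, with 962 Ighv reads, to 98 in LPL WT replicate 1, with 78107; the library with the fewest reads, tissue KO replicate 1, showed 61. Drawn down to 662 Ighv reads, the smallest library's total, the expected number was 61 to 67.3 in tissue, 61.8 to 68.6 in LPL and 47.8 to 67 in IEL. IEL KO replicate 1 was the lowest of the 12 at this common depth, and the other 11 lay between 61 and 68.6. A segment with no read in a library may still hold up to 3 reads' worth, which is 0.148% of Ighv reads in tissue WT replicate 1.

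Usage was spread over many segments. The leading segment of each library held between 6.05% and 22.1% of its Ighv reads, and 6 different segments led. Intervals given here are 95% Wilson intervals, which cover counting error only, since reads are not independent molecules.

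In tissue, Ighv9-3 led both WT libraries, with 12.5% (11.2 to 14.1%) and 13.6% (12.6 to 14.6%) of their Ighv reads. Ighv1-81 led tissue KO replicate 1 with 9.67% (7.64 to 12.2%, 64 reads) and Ighv1-26 led tissue KO replicate 2 with 15.3% (13.5 to 17.4%). In those KO libraries Ighv9-3 held 5.89% and 1.47%, below both WT libraries. It lies at 114140692 to 114141122 on chromosome 12 (gene ID 780825).

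In LPL, Ighv9-3 led WT replicate 1 with 6.05% (5.89 to 6.22%), the flattest of all 12 libraries, and Ighv1-26 led WT replicate 2 with 17.6% (16.9 to 18.3%). Ighv1-81 led KO replicate 1 with 11.2% (10.8 to 11.6%) and Ighv1-26 led KO replicate 2 with 12.8% (12.2 to 13.3%). With 11812 to 78107 Ighv reads behind them these LPL shares are the most precisely counted. The 2 WT libraries had different leading segments, as did the 2 KO libraries.

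In IEL, Ighv6-3 led WT replicate 1 with 9.57% (8.15 to 11.2%) and Ighv1-26 led WT replicate 2 with 18.8% (17.3 to 20.4%). Ighv5-9 led KO replicate 1 with 22.1% (19.6 to 24.9%, 213 reads) and Ighv5-17 led KO replicate 2 with 21.8% (18.9 to 25.1%, 149 reads). These were the 2 highest shares of the 12 libraries, in libraries with 962 and 683 Ighv reads. The 2 KO libraries were led by different segments of the same family.

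Ighv1-26 (gene ID 629884, 114788372 to 114788665) was the segment most often in front, first in 4 libraries, second in 2 and among the top 10 in 10 of 12. Its share of Ighv reads was 7.26%, 3.80%, 4.68% and 15.3% in tissue (WT 1, WT 2, KO 1, KO 2), 5.44%, 17.6%, 6.86% and 12.8% in LPL, and 1.63%, 18.8%, 1.56% and 2.49% in IEL. It was high in 1 IEL library and low in the other 3, and within no preparation did WT and KO separate. The mean over 12 libraries was 8.18%, the highest of any segment. By mean share the top 10 segments held 39.0% of Ighv reads and the top 20 held 58.4%.

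Ighv1-81 (gene ID 668591, 115920279 to 115920572), near the far end of the locus, held 5.68%, 1.82%, 9.67% and 1.93% in tissue, 5.93%, 3.46%, 11.2% and 6.08% in LPL, and at most 1.06% in IEL. Ighv6-3 (gene ID 629845, 114391712 to 114392010) ranged from 1.25% in LPL KO replicate 1 to 10.3% in LPL WT replicate 2. Ighv4-1 (gene ID 780802, 113948284 to 113948577), the single member of its family, was second in LPL WT replicate 2 with 10.8% and in tissue KO replicate 2 with 8.97%, and lay between 0.276% and 3.95% elsewhere.

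Some segments peaked in 1 or 2 libraries, and not all of these were scarce in the rest. Those described here were picked after their values were seen. In all, 21 segments reached 5% of Ighv reads in some library. Ighv5-9 (gene ID 544896, 113661771 to 113662228) held 22.1% of IEL KO replicate 1, at most 1.41% of any other library and a median of 0.383%. Ighv5-17 (gene ID 780794, 113859149 to 113859442) held 21.8% of IEL KO replicate 2 and at most 5.35% elsewhere. It was not scarce in general, with a median of 2.54% and at least 5% in 3 libraries. Ighv1-61 (gene ID 674018, 115359140 to 115359433) held 10.5% of IEL KO replicate 2 and 8.11% of IEL WT replicate 2, then at most 0.880%. Ighv10-1 (gene ID 380808, 114479007 to 114479451) held 11.5% of IEL KO replicate 1 and 7.80% of IEL WT replicate 1, then at most 3.37%. Ighv14-2 was second in tissue WT replicate 2 with 8.48% and Ighv8-12 second in tissue KO replicate 1 with 6.80%. For Ighv1-61 and Ighv10-1 the pair of high libraries had the same replicate number, one of each genotype.

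**Figure D2:**
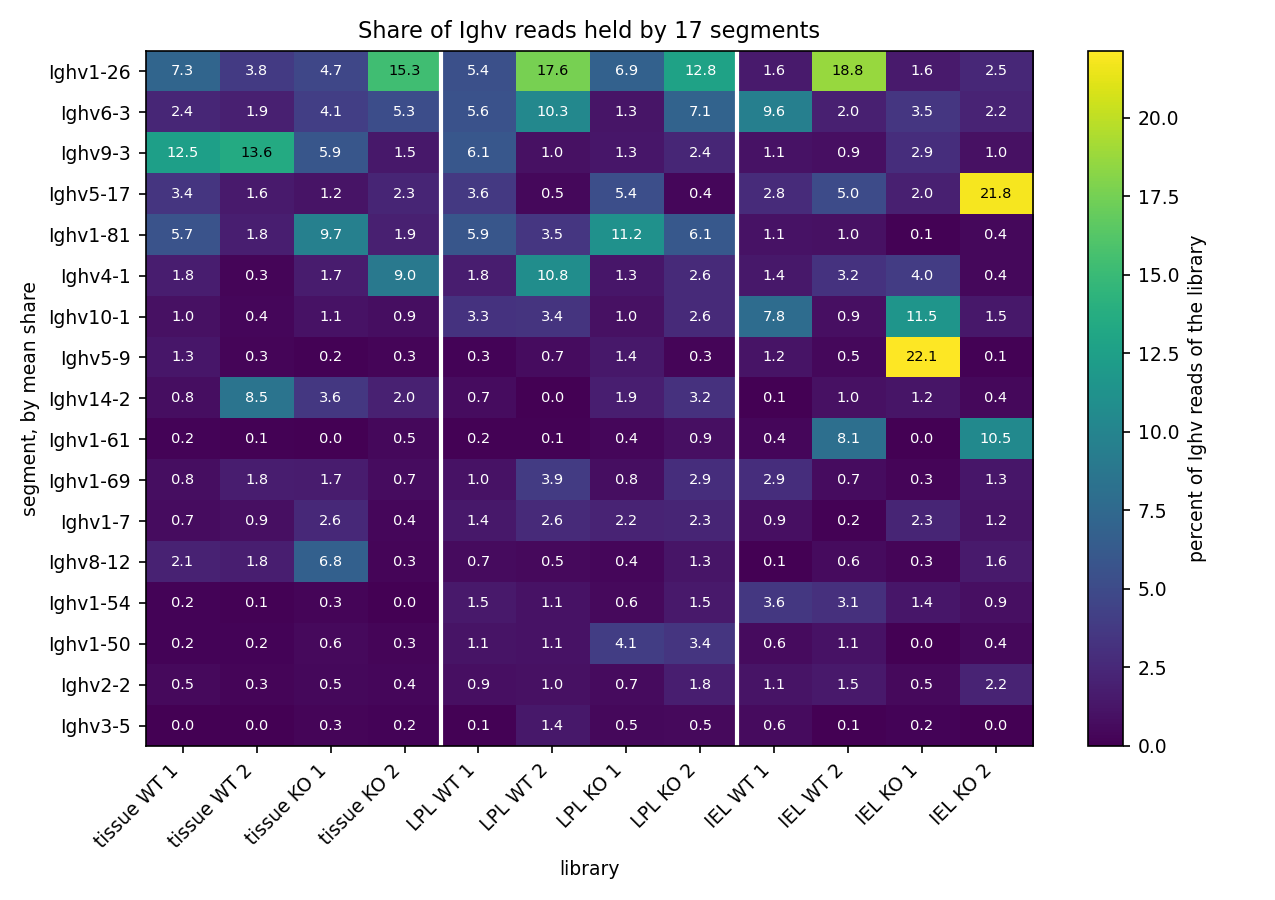
Percent of Ighv reads held by 17 segments (rows, ordered by mean share) in each of 12 libraries (columns), with the value printed in each cell. Ighv5-9 and Ighv5-17 stand out in a single IEL KO library each (22.1% and 21.8%), whereas Ighv1-26 is high in libraries of all 3 preparations.

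Dominance was summarised by the effective number of segments, the number of equally used segments that would give the same inverse Simpson index. It was 21.4, 21.6, 27.6 and 19.4 in tissue (WT 1, WT 2, KO 1, KO 2), 34.9, 15.2, 25.7 and 25.3 in LPL, and 28.4, 17.2, 12.5 and 13.4 in IEL. The 2 lowest values were those of the IEL KO libraries, but LPL WT replicate 2 at 15.2 and IEL WT replicate 2 at 17.2 came close, and the WT values of IEL were 28.4 and 17.2. Leaving out each library's leading segment raised the IEL KO values to 19.6 and 22.8. LPL WT libraries gave both the most even and the least even usage of their preparation. The top 5 segments held 32.0 to 39.8% of Ighv reads in tissue, 27.1 to 47.2% in LPL and 33 to 48.1% in IEL, and 6 to 13 segments sufficed for 50% of a library's Ighv reads. With 2 libraries per genotype, an exact two-sided permutation test of genotype within a preparation cannot go below 0.333, and none was run.

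**Figure D3:**
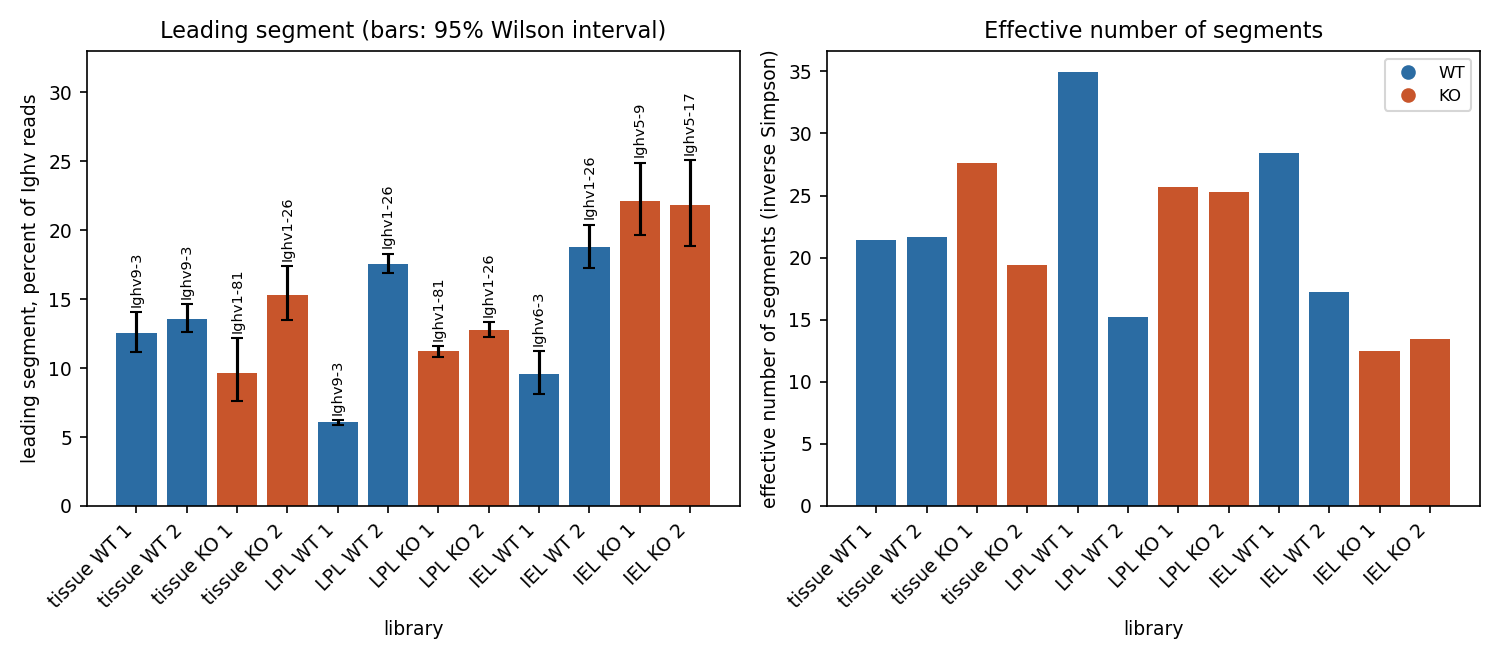
Left, the percent of Ighv reads on the leading segment of each library, with its name and its 95% Wilson interval; right, the effective number of segments (inverse Simpson). WT is blue and KO orange. The IEL KO libraries show the highest leading shares (22.1% and 21.8%) and the lowest effective numbers (12.5 and 13.4), and LPL WT replicate 1 the opposite (6.05% and 34.9).

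These shares are of reads, and segments differ in annotated span, from 282 to 487 bases with a median of 294. Divided by span, the same segment led in 11 of 12 libraries; in LPL WT replicate 1 Ighv1-81 took the place of Ighv9-3. Segments of a family can be near-identical in sequence and somatic mutation changes them further, so reads may have been assigned to a neighbour or dropped, and how reads with several alignments were counted is not given in the sources used here.

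By family, the number between Ighv and the dash, usage followed family size in part. The Ighv1 family, 60 of the 120 segments, held 54.5% of Ighv reads in the mean, from 40.02% in IEL KO replicate 1 to 61.2% in LPL KO replicate 1. The Ighv5 family, with 10 segments, held 4.45 to 9.67% in tissue, 6.04 to 13.4% in LPL, 9.15% and 13.4% in IEL WT and 24.9% and 23.9% in IEL KO. In each IEL KO library 1 segment made up most of the family, Ighv5-9 in the first and Ighv5-17 in the second. Its other members held 2.81% and 2.05%, against 6.38% and 8.40% beside the family's first segment in IEL WT. The Ighv8 family, also with 10 segments, held 2.96% in the mean. Ighv9, with 4 segments, held 13.6% and 14.7% in tissue WT against 6.50% and 1.70% in tissue KO, most of it Ighv9-3. Ighv10, with 2 segments, reached 10.8% in IEL WT replicate 1 and 13.1% in IEL KO replicate 1 and at most 4.25% in the other 10 libraries. Whether family shares differ between genotypes was not tested.

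Position along the locus showed no concentration. Split by order into 3 stretches of 40 segments, the stretch nearest the constant genes held 31.6% of Ighv reads in the mean (25.0 to 39.9% by library), the middle 35.5% (26.9 to 46.4%) and the farthest 32.9% (24.3 to 39.2%).

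**Figure D4:**
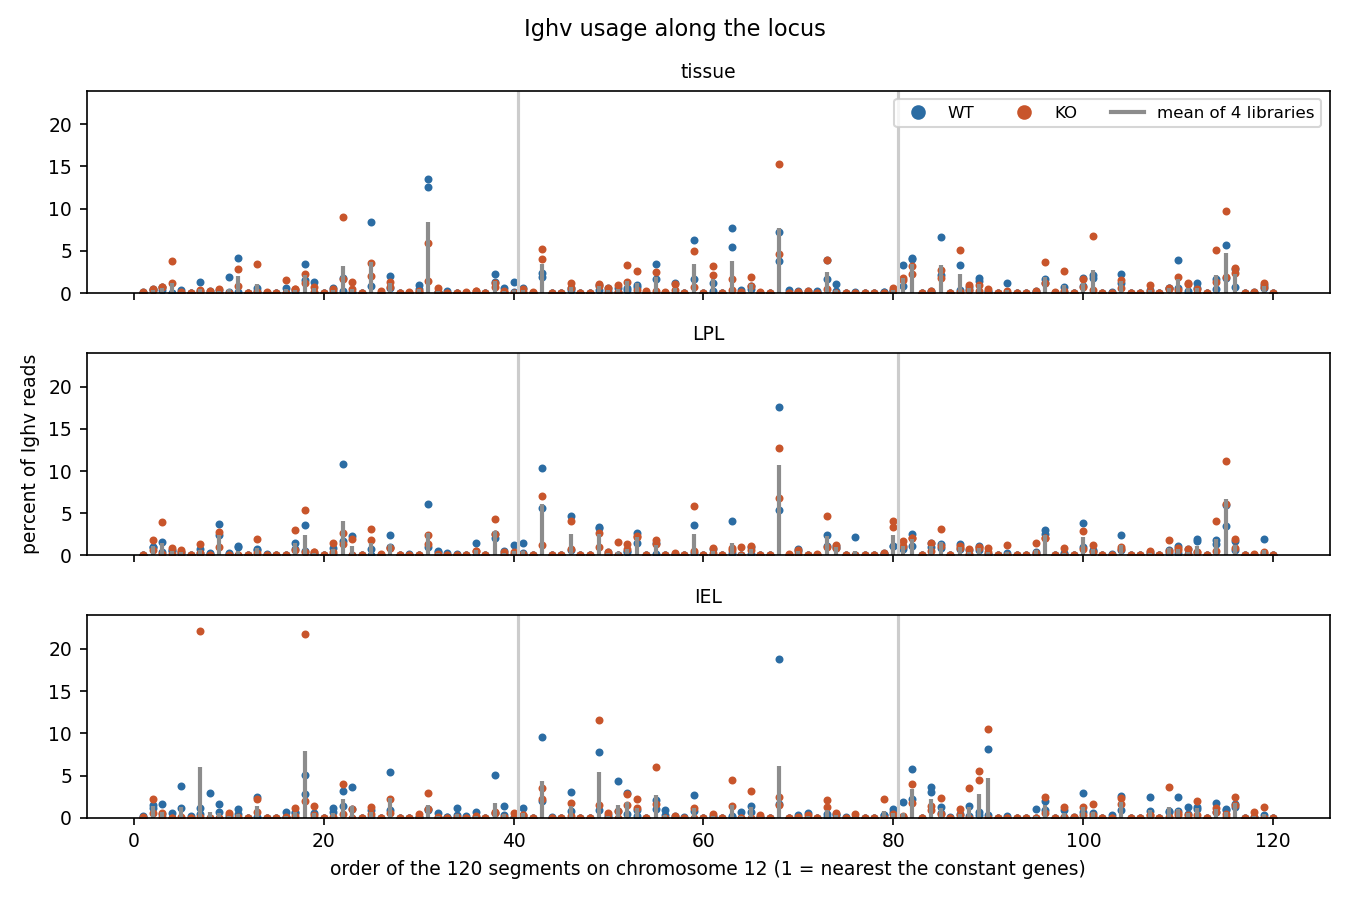
Percent of Ighv reads on each of the 120 segments in their order along chromosome 12, with 1 the nearest to the constant genes, for tissue, LPL and IEL; dots are libraries (WT blue, KO orange), grey bars the mean of 4 libraries, and vertical lines divide the stretches of 40. High dots occur in all 3 stretches, and the 2 dots above 20% are single IEL KO libraries.

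Profiles were compared between libraries by the overlap of their shares, the sum over segments of the smaller of the 2 shares. LPL libraries overlapped most with each other, with a median of 60.2% (52.6 to 65.2%, 6 pairs), then tissue libraries with 54.0% (46.0 to 60.7%), and IEL libraries least with 42.4% (33.9 to 47.4%). Pairs of 1 group had a median of 52.5% (6 pairs) and pairs of the same preparation but other genotype 50.5% (12 pairs). The 2 medians lay close together beside ranges of 34.4 to 60.7% and 33.9 to 65.2%. Between preparations the median was 54.0% for tissue with LPL, 46.2% for LPL with IEL and 42.5% for tissue with IEL (16 pairs each). IEL and tissue KO libraries had the fewest Ighv reads, and the part of read number in these overlaps was not tested.

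The comparison of KO with WT asked whether loss of lnc13 went with a change in these segments. Of the 120 segments, 80 passed the filter on low counts and were tested with all 14716 genes that passed. Most passed through LPL: 77 of the 80 had at least 10 reads in 2 or more LPL libraries, against 43 in tissue and 43 in IEL. The 40 not tested included the 15 with no read, and the most read of the others had 263 reads in all libraries together. No Ighv segment passed edgeR's adjusted p of 0.05 in tissue, LPL or IEL, and neither did any other gene (0% called in each). Unadjusted, 8 of 80 segments in tissue, 10 in LPL and 6 in IEL had p under 0.05, against 463, 448 and 120 of all genes. DESeq2 called 0, 1 and 0 segments (all genes 0.0408%, 0.0068% and 0.0068%), with 12, 13 and 23 of 80 unadjusted against 545, 601 and 133 of all genes. The test of whether the KO difference varied between preparations called no segment either, in edgeR or in DESeq2. It called no other gene of the 14716 in either, so the absence of calls is not particular to Ighv. Unadjusted, edgeR had 6, 5 and 3 of 80 segments for LPL against tissue, IEL against tissue and IEL against LPL. DESeq2 had 6, 10 and 8 in the same order.

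Fitted values of single segments lay mostly below 0. In tissue 63 of 80 did, with a median log2 difference of -1.42, in LPL 64 with -0.89, and in IEL 58 with -1.47, beside medians of -0.01, 0.01 and -0.02 over all genes tested. The segments are not independent of each other, since the immunoglobulin RNA content of a library enters all of them. Both KO libraries lay below both WT libraries for 30 of the 80 in tissue (all genes 12.3%), 10 in LPL (all genes 8.62%) and 28 in IEL (all genes 12.3%). They lay above for 4 (all genes 13.2%), 3 (9.89%) and 2 (14.8%). In percent of the 80, the lower ones were 37.5%, 12.5% and 35%. Single libraries moved these medians: it was -0.12 in tissue without WT replicate 2, which had the most Ighv reads, and 1.65 in LPL without WT replicate 1. In IEL it stayed below 0 in each leave-one-out fit, between -2.42 and -0.57. In LPL, KO against WT, the fitted medians of 8 T cell genes and 6 macrophage genes were also below 0, at -2.88 and -3.65, with no gene called (6 and 5 unadjusted), and their part was not tested. In tissue, replicate 2 of both genotypes differed from replicate 1 in sex and in Lct, and the part of either in the Ighv values was not tested.

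Ighv9-3 was among the segments with the lower KO levels in tissue, at 21.9 and 48.6 CPM in WT and 4.24 and 2.27 CPM in KO. The groups did not overlap, but its fitted log2 difference of -3.42 (SE 1.39) had an adjusted p of 1 in edgeR. In LPL it was 355 and 7.53 CPM in WT and 30.9 and 21.4 CPM in KO, with the KO pair inside the WT range. In IEL it lay at 0.645 to 2.86 CPM, with no separation.

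Ighv5-9-1 (gene ID 641178, 113736113 to 113736406), named after its values were seen, was the segment that DESeq2 called in LPL. Its level was 62.4 and 8.05 CPM in LPL WT and 0.606 and 0.680 CPM in LPL KO, with a log2 difference of -5.76 and an adjusted p of 0.0148 in DESeq2, against -5.75 (SE 1.38) and an adjusted p of 1 in edgeR. It stood at 7.33 and 0.660 CPM in tissue WT and 2.07 and 1.32 CPM in tissue KO, where the groups overlapped, and at 0.535 and 2.60 CPM in IEL WT against 0 and 0.0922 in IEL KO.

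The preparations were compared over both genotypes. LPL was above tissue for 58 of the 80 segments and below it for none, beside 55.3% of all genes called, 27.3% higher and 28% lower. The median log2 difference was 3.82 over the 80 against 0.03 over all genes, and 2.75 without LPL WT replicate 1 and 4.43 without tissue KO replicate 2. LPL was above IEL for 52 segments and below it for none (of all genes 7.92% were lower in IEL, 11.5% higher and 19.4% either), with a median of -4.38 for IEL minus LPL against -0.03. Most members passed the filter through LPL, where they are high, so these counts are tilted towards LPL and do not describe all 120. With no filter, 68 of 105 segments were called higher in LPL than tissue (all genes 35.4% in either direction). For IEL against LPL 70 of 105 were called lower (all genes 13.1% in either direction). Pancreas RNA was likewise present in every LPL library and scarce elsewhere, and epithelial RNA was lower in every LPL and IEL library than in tissue. Tissue replicate 2 of both genotypes was male by Ddx3y, unlike every LPL and IEL library. Lct stood at 0.330 to 211 CPM in tissue, 6.24 to 52.9 in LPL and 1123 to 1826 in IEL. The part of any of these in the differences between preparations was not tested. Of the calls, 46 were shared, 79.3% of the first set and 88.5% of the second. Both comparisons use the same LPL libraries and the same filter. No overlap at all between the 4 and 4 libraries was seen for 31 segments in LPL over tissue (all genes 26.5%) and for 43 in IEL under LPL (all genes 15.1%). The count for IEL under LPL dropped to 18 without IEL KO replicate 2, to 28 without IEL WT replicate 2, to 30 without IEL KO replicate 1 or LPL KO replicate 1 and to 33 without IEL WT replicate 1. The calls over all genes were then 8.5%, 8.25%, 11.5%, 8.30% and 16.0%, in that order, in place of 19.4%. A fit that leaves 1 library in a group assumes that it varies like the others.

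Among the 5 segments with the smallest p in LPL against tissue, Ighv1-50 (gene ID 780929, 115119748 to 115120041) stood at 66.8, 8.57, 95.3 and 30.6 CPM in LPL (WT 1, WT 2, KO 1, KO 2) and 0.345, 0.742, 0.435 and 0.479 CPM in tissue. All LPL libraries lay above all tissue libraries, with a log2 difference of 6.58 (SE 0.87, edgeR adjusted p = 0.000336). Ighv1-69 (gene ID 619833, 115623203 to 115623595) stood at 61.5, 29.6, 18.6 and 25.7 CPM in LPL and 1.47, 6.43, 1.20 and 1.08 CPM in tissue. It rose by 3.90 (SE 0.52, adjusted p = 0.000338), the smallest fold of the 5, and its groups did not overlap. Ighv2-2 (gene ID 777686, 113588267 to 113588700), near the constant genes, stood at 55.4, 7.33, 16.2 and 16.6 CPM against 0.949, 1.15, 0.326 and 0.599 CPM, a rise of 5.0 (SE 0.70, adjusted p = 0.000453).

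Ighv3-5 (gene ID 633457, 114262652 to 114262950) reached 5.33, 11.1, 11.2 and 4.88 CPM in LPL from 0, 0.0825, 0.217 and 0.359 CPM in tissue, a rise of 6.02 (SE 0.78, adjusted p = 0.000299). Ighv1-54 (gene ID 211331, 115193675 to 115193968) reached 88.3, 8.11, 13.3 and 13.5 CPM from 0.431, 0.330, 0.217 and 0, a rise of 6.85 (SE 0.90, adjusted p = 0.000314). Both, like Ighv1-50 and Ighv2-2 (at most 0.742 and 1.15 CPM in tissue), rested on few tissue reads. The size of these fitted changes therefore depends on how values near 0 are handled. The 3 segments that led a tissue library rose by 2.68 (Ighv9-3, adjusted p = 0.0344), 3.73 (Ighv1-26) and 4.75 (Ighv1-81, adjusted p = 0.00155). Whether segments differed from each other in this rise was not tested.

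In IEL against LPL, Ighv1-69 fell by 4.66 (SE 0.55, adjusted p = 0.000904) to 3.66, 1.70, 0.306 and 0.830 CPM in IEL. Ighv1-81 stood at 347, 26.5, 264 and 54.6 CPM in LPL and 1.34, 2.30, 0.102 and 0.277 CPM in IEL, a fall of 8.15 (SE 1.07, adjusted p = 0.00151). Ighv1-7 (gene ID 668474, 114538495 to 114538788) stood at 84.0, 20.2, 52.5 and 20.3 CPM in LPL and 1.16, 0.40, 2.24 and 0.737 CPM in IEL. It fell by 5.32 (SE 0.71, adjusted p = 0.00157). All 4 IEL libraries lay below all 4 LPL libraries for each of these 3 segments. Ighv1-50 fell by 6.57 (SE 0.89, adjusted p = 0.00173) to at most 2.60 CPM, and Ighv6-3 by 4.43 (SE 0.62, adjusted p = 0.00198) to 1.38 to 12 CPM. The lowest IEL values of Ighv1-81 and Ighv1-50 were 0.102 and 0 CPM. The size of their fitted falls depends on how values near 0 are handled.

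Few segments were called between IEL and tissue, which does not show that their levels were alike. The 80 passed the filter mostly through LPL, which is not compared here. At least 10 reads in 2 or more libraries were found for 43 segments in tissue and 43 in IEL. Of the 80, 1 was called higher in IEL (all genes 21.9%) and 1 lower (23.1%, and 45% in either direction), with a median of -0.63 against 0.05 over all genes. Ighv1-54 was the higher one, at 4.55, 7.40, 1.33 and 0.553 CPM in IEL, above every tissue library, with a log2 difference of 3.43 (SE 0.96, adjusted p = 0.0178). Ighv1-81 was the lower one, at 9.92, 6.52, 6.96 and 2.99 CPM in tissue, above every IEL library, with -3.40 (SE 1.09, adjusted p = 0.0307). Each rested on few reads in its lower preparation, so the size of both changes depends on how values near 0 are handled. Neither call held in every leave-one-out fit. The first was lost without tissue WT replicate 2, tissue KO replicate 2 or IEL KO replicate 1, with adjusted p up to 0.0705, and the second was lost without any of the 8 libraries except tissue KO replicate 2, with adjusted p up to 0.0944. The count of 2 segments became 5 of 90 without IEL WT replicate 2 (all genes 34.4%), 4 of 90 without IEL KO replicate 2 (all genes 32.6%), 1 of 90 without tissue WT replicate 2 (31.2%) or IEL KO replicate 1 (30.1%) and 12 of 80 with DESeq2 (47.4%).

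**Figure D5:**
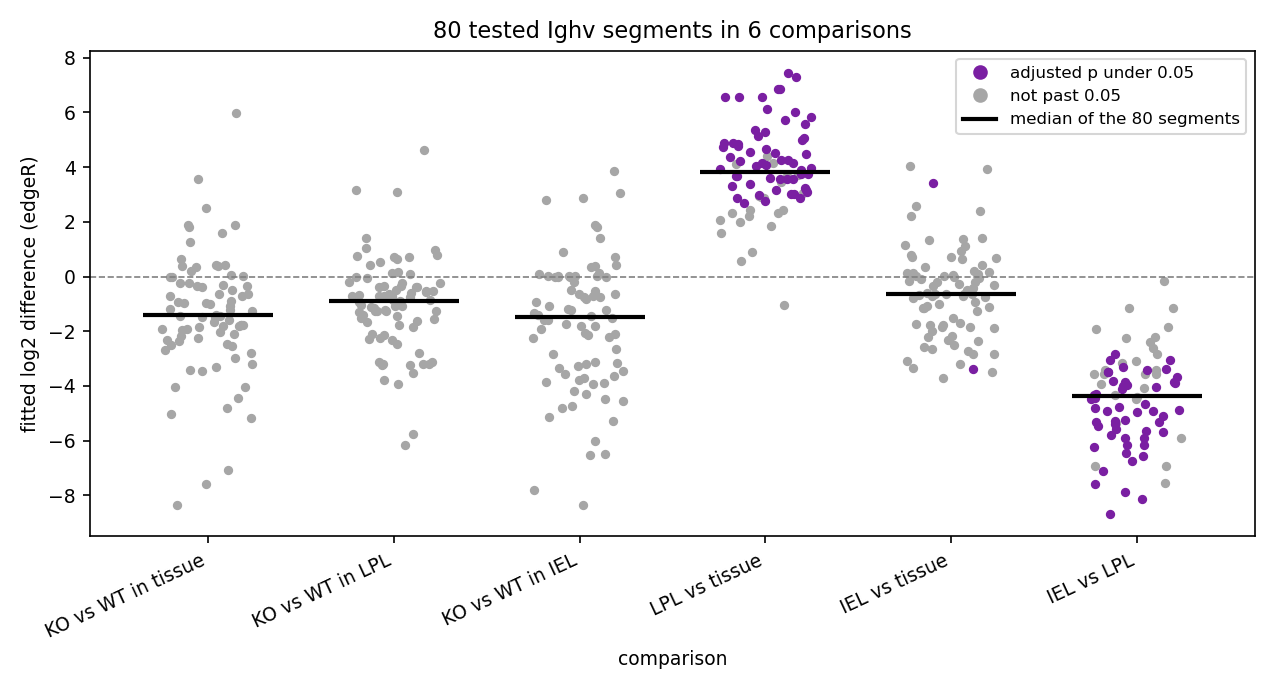
Fitted log2 differences (edgeR) of the 80 tested Ighv segments in 6 comparisons, 1 dot per segment, purple where the adjusted p was under 0.05, with a black line at the median; horizontal scatter within a comparison has no meaning. No segment was called for KO against WT, 58 rose in LPL against tissue and 52 fell in IEL against LPL.

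The companions of Ighv in the same cells were read from gene lists. Heavy chain constant genes gave the class in use. Igha, the IgA constant gene, took 82.8 to 98.7% of heavy chain constant reads in tissue, 98.0 to 99.2% in LPL and 85.9 to 93.1% in IEL. Its level was 950 and 2192 CPM in tissue WT, 418 and 1207 in tissue KO, 26781 and 2933 in LPL WT, 11091 and 3861 in LPL KO, 566 and 992 in IEL WT and 368 and 290 in IEL KO. Igha rose by 3.22 in LPL against tissue (SE 0.73, edgeR adjusted p = 0.00522) and fell by 4.38 in IEL against LPL (adjusted p = 0.00538). Of the 7 constant genes tested, Ighg2c was the other one called, higher in LPL than tissue by 2.13 (edgeR adjusted p = 0.0332). It was called lower in IEL than in both. Of all genes 27.3% were called higher in LPL than tissue, and 23.1% and 7.92% lower in IEL than in tissue and LPL. Ighm, the IgM constant gene, lay between 6.93 and 151 CPM and was highest in LPL WT replicate 1. Ighg2b, an IgG constant gene, was at 118 CPM in tissue WT replicate 1 and 125 CPM in LPL WT replicate 1 and at most 26.2 CPM elsewhere.

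Reads on Ighv per read on the 8 heavy chain constant genes numbered 0.152, 0.160, 0.163 and 0.127 in tissue. The LPL libraries gave 0.216, 0.256, 0.210 and 0.231, and the IEL libraries 0.205, 0.226, 0.245 and 0.186 such reads. All tissue libraries lay below all LPL and IEL libraries in this ratio. RNA was extracted by different methods from tissue and from cells, per the labels, so extraction and preparation cannot be told apart here. Within each of the 3 preparations WT and KO overlapped in this ratio.

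Light chain variable segments of the kappa chain moved alike. The 103 Igkv segments of the kappa chain summed to 221 and 528 CPM in tissue WT, 87 and 234 in tissue KO, 6525 and 667 in LPL WT, 2555 and 883 in LPL KO, 128 and 218 in IEL WT and 91.5 and 77.9 in IEL KO. There were 0.661 to 1.15 Ighv reads per Igkv read. Of 75 Igkv segments tested, 48 were called higher in LPL than tissue (all genes 27.3%) and 51 lower in IEL than LPL (7.92%). In IEL against tissue 5 were called lower (23.1%). The Igkv median log2 differences for KO against WT were -1.34, -0.93 and -1.37 in tissue, LPL and IEL. The 3 Iglv segments of the lambda chain were all called higher in LPL than tissue (all genes 27.3%). In IEL 1 was called lower than in LPL (all genes 7.92%). In IEL against tissue all 3 had fitted values above 0, with a median of 0.91 and none called. The 4 light chain constant genes were all called higher in LPL than tissue (all genes 27.3%), Igkc by 2.95 (SE 0.76, edgeR adjusted p = 0.0100).

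Plasma cell genes shared the rise in LPL only in part. Of 12, 8 were called higher in LPL than tissue (all genes 27.3%). Among them was Jchain, the chain that joins IgA into dimers, with 2.69 (SE 0.83, edgeR adjusted p = 0.0220). Xbp1, a transcription factor of the secretory programme, had 0.53 (edgeR adjusted p = 0.0564). Sdc1 and Prdm1, a surface proteoglycan and a transcription factor that epithelium also expresses, were lower (-0.82 and -1.78, adjusted p = 0.00506 and 0.0349). In IEL 10 of 12 were called lower than in LPL (all genes 7.92%). Jchain stood at 4952 and 460 CPM in LPL WT and 2106 and 612 CPM in LPL KO, again with the KO pair between the WT pair.

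B cell genes followed another order than Ighv. Their sum over 12 genes was 102, 9.82, 9.68 and 11.1 CPM in tissue, 227, 10.1, 21.2 and 13.8 CPM in LPL, and 26.9, 40.8, 17.7 and 26.1 CPM in IEL. Tissue WT replicate 2 had the most Ighv reads of the tissue libraries but 9.82 CPM of these genes. None of the 12 was called by edgeR in any of the 6 comparisons, with 6 of 12 at an unadjusted p under 0.05 for KO against WT in LPL and 0 in the other 5. All 12 had fitted values below 0 for KO against WT in tissue and in LPL, where WT replicate 1 held most of their reads. The part of these cells in the Ighv values was not tested. Rag1 and Rag2, which cut and join the segments in developing lymphocytes, were at 0 in all but 1 library each, at 0.239 and 0.102 CPM. Pigr lay between 2924 and 6135 CPM in the 12 libraries.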

How the data were processed

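Per the labels' protocols, a NEBNext Ultra II RNA kit was used on poly(A) RNA of whole small intestine, LPL and IEL preparations. Raw read counts per Entrez gene were deposited, made from HISAT2 alignments per the file headers. TopHat, featureCounts, DESeq and mm10 are listed in the submitters' processing notes, so the aligner is recorded in 2 ways. How the authors counted reads with several alignments, or read strand, is not given in the sources used here, and both bear on near-identical segments. Of 27179 identifiers 25275 matched a symbol in RefSeq tables of GRCm38 (99.17% of reads). RefSeq lists 63 further Ighv pseudogenes, which have no row in the count tables, so reads from them may be missing or assigned to members. No sequence is printed, since the reference tables used held no Ighv entry with sequence.

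From the counts, CPM were computed with TMM factors over all genes, and shares as percent of Ighv reads. The 12 libraries were fitted as 6 groups with edgeR 4.0.16 (quasi-likelihood, filterByExpr, R 4.3.3) over all 14716 genes that passed, with Benjamini-Hochberg adjustment at 0.05; preparations were compared over both genotypes, each weighing equally. The 3 comparisons between preparations share libraries. Fits were tested on simulated counts, with changes put into genes drawn from all those tested. Changes of 2-fold between KO and WT were recovered in 4.5% (tissue), 6% (LPL) and 9% (IEL) of the altered genes. For 4-fold changes these were 43.3%, 59.7% and 70.1%, and for 8-fold 78.8%, 86.4% and 78.8%. Recovery for Ighv segments alone was not tested, and these percentages are not to be read as theirs. Ighv9-3, with a fitted log2 difference of -3.42 (SE 1.39) for KO against WT in tissue, was not called. Sums, shares and effective numbers over the members received no p-value. Python 3.11.15, pandas 2.3.3, scipy 1.17.1 and matplotlib 3.10.9 made the other values. Groups and replicate numbers came from the titles. The titles call the libraries biological replicates but do not tie them to single animals, so p-values measure the spread between these libraries. The precision of a share follows from 662 to 78107 Ighv reads per library.

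The members, gene lists and tests were chosen with earlier results of these data known. Segments named were the first and second by share in each library and up to 5 called higher and 5 called lower with the smallest p in each comparison, and of other lists up to 4 with the highest mean CPM; Ighv5-9-1, Ighv1-53, Ighv1-82, Ighv16-1, Rag1, Rag2, Il22, Lct and Ddx3y fall outside this rule and were chosen after their values were seen. Alternatives were DESeq2 1.42.0 (size factors, and Wald test), no filter, at least 1 CPM in 2 libraries, library sizes without immunoglobulin genes or without TMM, the groups compared alone, a replicate block, other measures of dominance, and leaving out each library. Leaving out libraries in the measures of dominance and shares per annotated base were added after the data were seen. A few listed genes are left out of the text.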

Additional observations from a re-analysis of the deposited data

How the results depend on the processing

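Of 291 recomputed counts, medians, sums and dominance values, 259 stayed within 1.5 times (counts) or within 1 SD between libraries, and 32 did not; of 180 recomputed values of named segments, all kept their sign and 10 lost their call, all in IEL against tissue. Segments called in IEL against tissue numbered 2 of 80, and 12 of 80 with DESeq2 (all genes 45% and 47.4%). With no filter they numbered 12 of 105 (29.1%) and with only the groups compared 6 of 57 (44.4%). DESeq2 called 1 segment for KO against WT in LPL (all genes 0.0068%) where edgeR called 0 (all genes 0%). Counts that were 0 in both fits, as most were for KO against WT, are part of the 259. The 180 values belong to segments picked by the smallest p in these same data. Both tallies therefore lean towards agreement. Leaving out each library gave 18 to 64 segments lower in IEL than LPL and 39 to 70 higher in LPL than tissue, and 0 for KO against WT. Medians then ranged from -2.0 to -0.12 for KO against WT in tissue, -1.93 to 1.65 in LPL and -2.42 to -0.57 in IEL, from -0.83 to -0.016 for IEL against tissue from -4.95 to -3.03 for IEL against LPL and from 2.75 to 4.43 for LPL against tissue. The log2 difference of summed Ighv CPM ranged from -1.88 to 1.08 for KO against WT in LPL, 2.82 to 4.21 for LPL against tissue and -4.69 to -3.34 for IEL against LPL. The cause was not tested.

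With a replicate block, 44 of 80 segments were called in LPL against tissue, 55% beside 53.6% of all genes (58 without, all genes 55.3%). In IEL against LPL 44 were called, beside 19.6% of all genes (52 without, all genes 19.4%). There were 2 in IEL against tissue (all genes 44.6%) and 0 for KO against WT, where no other gene was called. After group means were subtracted, log CPM deviations of WT replicate 1 and KO replicate 1 were correlated over the genes tested. The correlations were 0.638 (tissue), 0.301 (LPL) and 0.465 (IEL). With 2 libraries per group the deviations of replicate 2 only mirror these, so the correlations cannot be turned into evidence of pairing. The top 5 segments held 37.0%, 35.6% and 42.1% in the mean of tissue, LPL and IEL, where the leading segment held 12.8%, 11.9% and 18.1%. Effective numbers averaged 22.5, 25.3 and 17.9, and became 35.3, 38.9 and 31.6 by Shannon entropy and 26.9 in tissue and 25.7 in IEL without the leading segment. Leaving out each library gave 20.8 to 23.6, 22.1 to 28.6 and 14.4 to 19.7. With 662 to 4340 Ighv reads, tissue and IEL libraries give shares of rarer segments from few reads each.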
